A study of Mus musculus with 5 samples.

Results

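The genes described here are 40 genes of the endoplasmic reticulum (ER) that sense unfolded protein, fold and translocate new proteins or remove misfolded ones. They were chosen by name, as the stress sensors, the targets of Xbp1 and Atf6 and the genes of ER folding, translocation and degradation, and all 40 were found among the 21878 genes of the deposited expression table. RNA-Seq was performed on LPS-treated bone marrow-derived macrophages (BMDMs), which are macrophages grown from marrow with macrophage colony-stimulating factor. The 2 wild-type samples (Kdm6aF/Y, replicates 1 and 3) carry a floxed Kdm6a gene and no Cre. The 3 Kdm6a-deficient samples (Kdm6aF/Y;Lyz2-Cre, numbered 1 to 3) carry the same floxed gene with a Cre recombinase in the lysozyme gene Lyz2, which is active in myeloid cells. LPS (lipopolysaccharide, a bacterial stimulus) was given to both genotypes, so no sample shows the unstimulated level. The study describes its BMDMs as taken from male mice and its libraries as made from pooled RNA, and no source used here ties a sample to its own animal. The p-values therefore rest on how far these 5 samples differ, and that spread can be technical.

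Secreted and membrane proteins enter the ER through the Sec61 channel, fold with the help of chaperones and form disulfide bonds there. When unfolded protein builds up, sensors in the ER membrane start the unfolded protein response. Ire1α, the product of Ern1, splices the mRNA of Xbp1 and so yields an active transcription factor. Atf6 is cut in the Golgi apparatus and its released part acts as a transcription factor. Perk, the product of Eif2ak3, slows translation and favours the making of Atf4. Macrophages use the Ire1α and Xbp1 branch in cytokine production as well, and in the study Ire1α was examined as a gene that Kdm6a regulates.

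The targeted gene was read first. Kdm6a, a demethylase of histone H3, had 3.72 and 2.91 FPKM (fragments scaled by transcript length and by the mapped fragments of the library) in wild-type BMDMs against 2.81, 1.77 and 2.44 FPKM in Kdm6a-deficient BMDMs. The genotypes did not overlap, but the difference did not pass the threshold (log2 fold change −0.38, limma adjusted p = 0.268). The authors' mean normalized counts of Kdm6a were 502.2 without Cre and 344.2 with Cre. In the study the Kdm6a protein is reported as abolished in BMDMs with Cre, and protein was not measured here. Macrophage markers were high in every sample, with Adgre1 at 741 ± 6.35 FPKM (SD, n = 2) without Cre and 784 ± 48.4 FPKM (SD, n = 3) with Cre. Lyz2, the gene that holds the Cre, fell by 1.10 on the log2 scale (limma adjusted p = 0.00722). Between 10641 and 10769 genes reached 1 FPKM in a sample. The depth of single libraries is unknown, and only the authors' mean normalized counts per genotype bear on it. These ran from 463.5 to 33810 for the tested members.

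None of the ER genes passed the test between the genotypes. Of the 40 members 39 reached 1 FPKM in at least 2 samples and were tested, and 0 of these 39 passed in either direction, where passing means an adjusted p under 0.05 (limma on log2(FPKM + 1), Benjamini-Hochberg over all 10893 tested genes). Of all tested genes 3.91% passed. At an unadjusted p under 0.05 there was 1 member, Eif2ak3, which was lower. Of all tested genes 17.3% had such a p, and 9.22% had it as lower genes. The log2 fold changes of the members ran from −0.26 to 0.13 with a median of −0.046, beside a median of 0.005 for all tested genes. A log2 fold change below 0 was seen for 27 of the 39 (22 without Kdm6a-deficient sample 2), and for 48.5% of all tested genes. The 95% interval of the difference lay within 0.5 of 0 on the log2 scale, a 1.41-fold change, for 38 of the 39 members, and for 81.2% of all tested genes. That limit was chosen after the values were seen. The exception was Ern1. The 0 calls were also found without Kdm6a-deficient sample 2, which stands apart for many of these genes (described below). In that fit 6.25% of all tested genes passed the adjusted threshold. The smallest adjusted p of a member was then 0.0757, for Sec61b, against 0.288, for Eif2ak3, with all 5 samples (limma). At an unadjusted p under 0.05 there were then 6 members. The share of all tested genes at that level was not computed for this fit, so the count does not show whether the members differ from other genes.

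**Figure D1:**
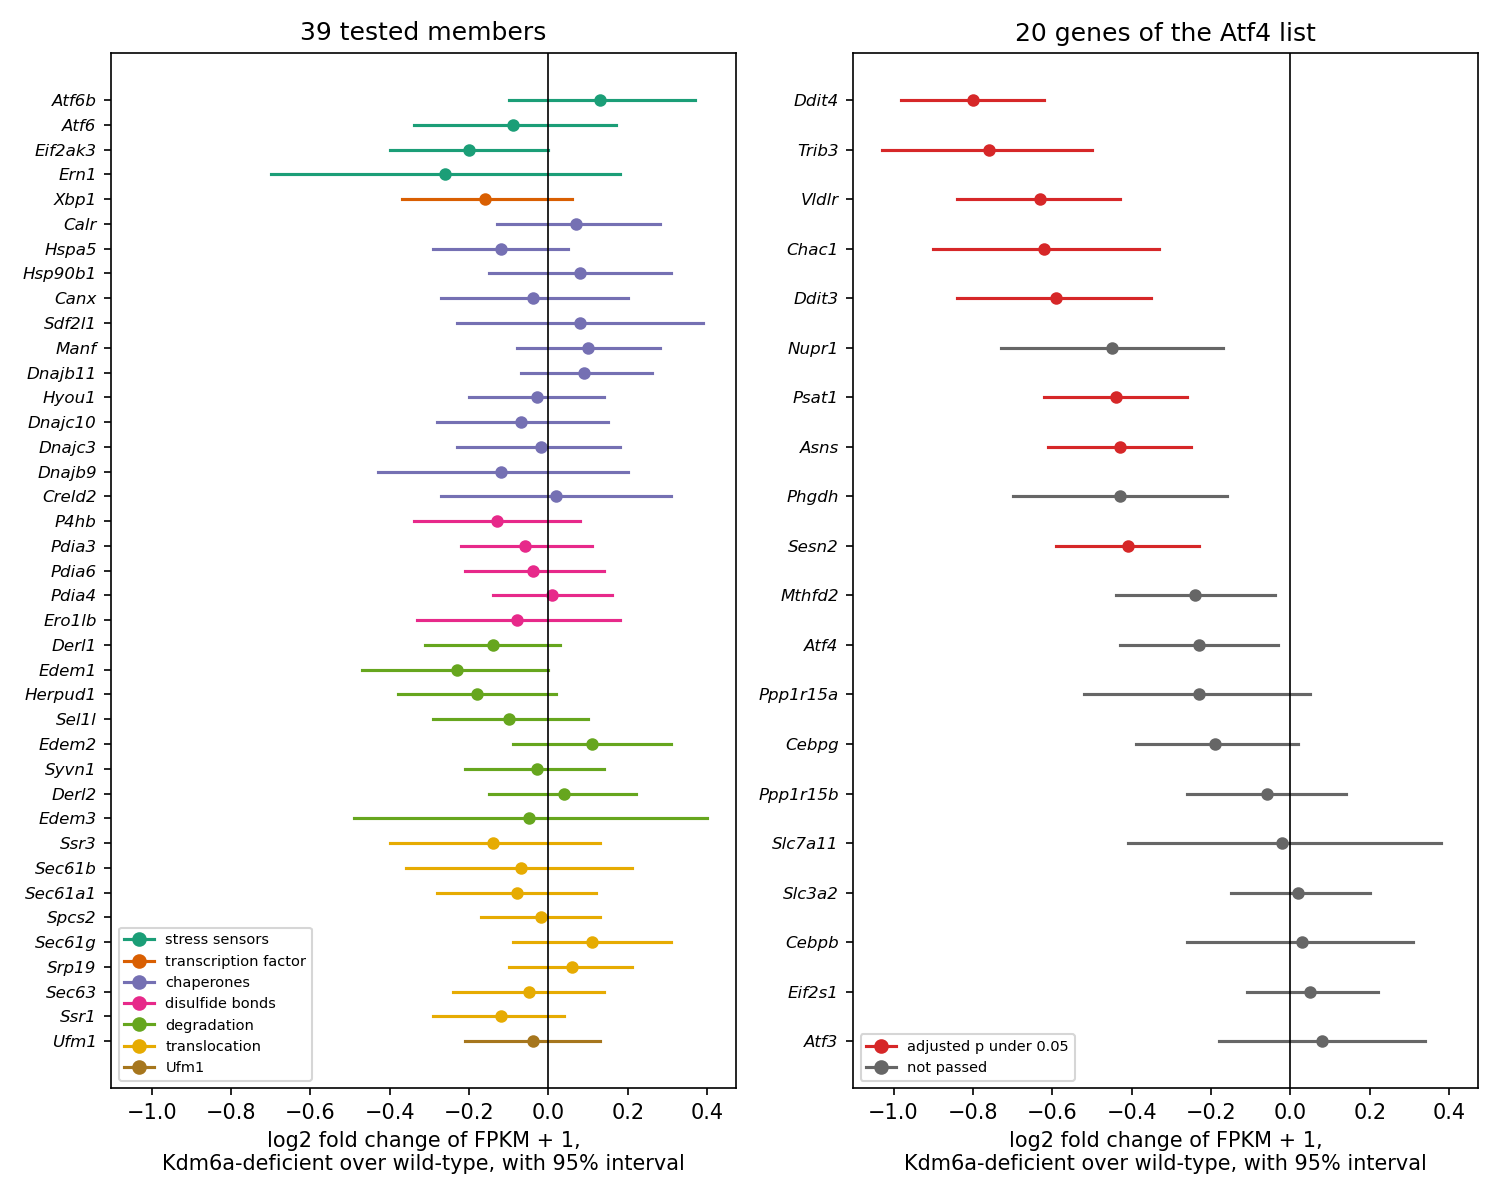
Log2 fold changes of FPKM + 1, Kdm6a-deficient over wild-type, with 95% intervals from limma (points and lines). The left panel shows the 39 tested members coloured by role, from −0.26 to 0.13, and the right panel the 20 genes of the Atf4 list, of which 8 were lower (red).

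Ern1 (GeneID 78943), the gene of Ire1α, had the lowest level of the tested members. It measured 5.27 and 4.97 FPKM in wild-type BMDMs against 4.97, 2.87 and 4.78 FPKM in Kdm6a-deficient BMDMs. Kdm6a-deficient sample 2 alone was low, and sample 1 lay within the wild-type range. The log2 fold change was −0.26 (SE 0.19, 95% interval −0.70 to 0.18, limma adjusted p = 0.557), and −0.32 with a pseudocount of 0.1 FPKM. Without Kdm6a-deficient sample 2 it was −0.06 (limma adjusted p = 0.676). The authors' mean normalized counts of Ern1 were 578.7 without Cre and 463.5 with Cre.

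Eif2ak3, the gene of Perk, was the only sensor gene whose genotypes did not overlap. It measured 6.17 and 6.77 FPKM in wild-type BMDMs against 5.73, 5.34 and 5.43 FPKM in Kdm6a-deficient BMDMs. The Kdm6a-deficient samples were all lower, and the gap between the genotypes was narrower than the distance between the wild-type samples. The log2 fold change was −0.20 (SE 0.08, limma adjusted p = 0.288).

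Atf6 measured 12.3 FPKM in both wild-type samples against 12.4, 9.89 and 12.4 FPKM in Kdm6a-deficient BMDMs. Here too only Kdm6a-deficient sample 2 was low, and the log2 fold change of −0.09 (95% interval −0.34 to 0.17, limma adjusted p = 0.76) became 0.01 without it. Atf6b, a relative of Atf6 that is cut in the same way, measured 25.3 and 26.8 FPKM in wild-type BMDMs against 27, 32.6 and 26.8 FPKM in Kdm6a-deficient BMDMs. Kdm6a-deficient sample 2 was the high sample of this gene, and the log2 fold change was 0.13 (95% interval −0.10 to 0.37, limma adjusted p = 0.575) with it and 0.05 without it. By level per length, the sensor genes stood in the same order in every sample, from Atf6b over Atf6 and Eif2ak3 to Ern1, and the ranges of neighbours over the 5 samples did not overlap.

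Xbp1, the transcription factor gene downstream of Ire1α, was far more abundant than the sensors. It measured 94.5 and 103 FPKM in wild-type BMDMs against 80.6, 96.4 and 88.9 FPKM in Kdm6a-deficient BMDMs. Kdm6a-deficient sample 2 lay between the wild-type samples and the other Kdm6a-deficient samples below both. The log2 fold change was −0.16 (SE 0.09, 95% interval −0.37 to 0.06, limma adjusted p = 0.47), and −0.22 without Kdm6a-deficient sample 2 (limma adjusted p = 0.155). An FPKM per gene does not separate the spliced from the unspliced Xbp1 mRNA, so the activity of Ire1α was not measured.

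**Figure D2:**
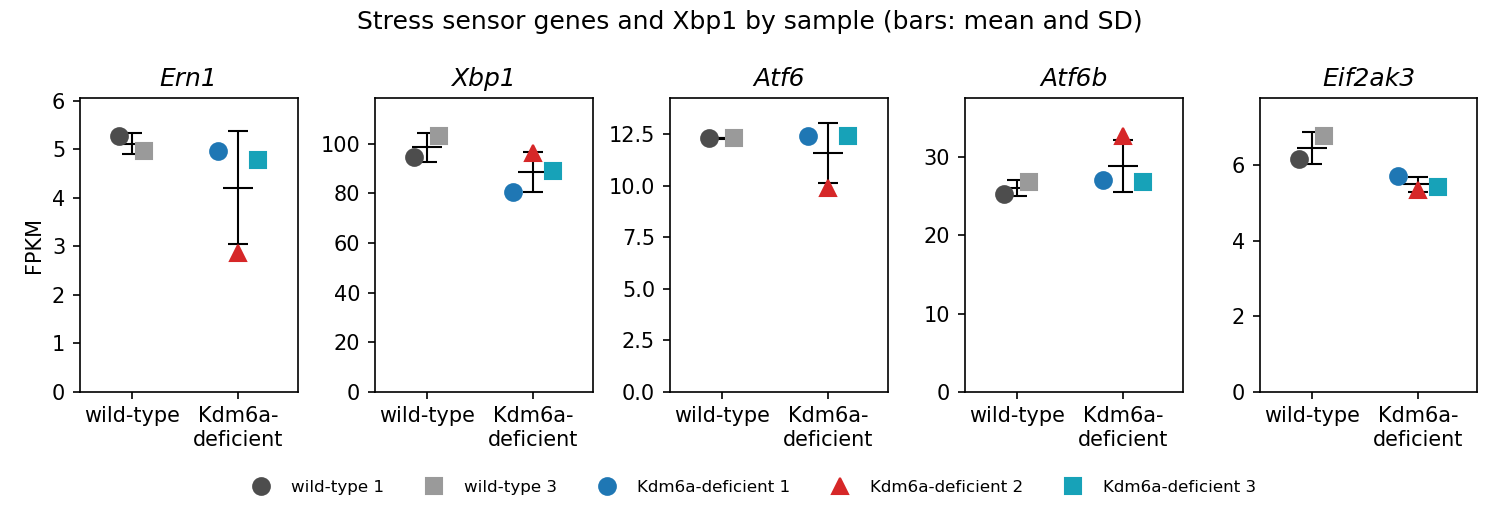
FPKM of Ern1, Xbp1, Atf6, Atf6b and Eif2ak3 in each sample (points), with the mean and SD of each genotype (black bars), each panel on its own axis from 0. Kdm6a-deficient sample 2 (red) is the lowest sample for Ern1, at 2.87 FPKM, and the highest for Atf6b, at 32.6 FPKM.

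The chaperone genes spanned mean levels from 27 to 581 FPKM, and none passed the test. Of the 12, 6 had a log2 fold change above 0 and 6 below it, from −0.12 to 0.10, with a median of −0.002. Calr, a lectin chaperone that binds calcium, was the highest member, at 564 ± 13.8 FPKM (SD, n = 2) without Cre and 593 ± 39.8 FPKM (SD, n = 3) with Cre, rank 88 of all genes. Canx, its membrane-bound relative, was at 139 ± 6.23 and 136 ± 14.1 FPKM (SD, n = 2 and n = 3).

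Hspa5 encodes BiP, the ER chaperone of the Hsp70 family that holds the sensors inactive. It measured 372 and 386 FPKM in wild-type BMDMs against 339, 357 and 353 FPKM in Kdm6a-deficient BMDMs. The Kdm6a-deficient samples were all lower, with a log2 fold change of −0.12 (95% interval −0.29 to 0.05, limma adjusted p = 0.484). Hsp90b1, the Hsp90 chaperone of the ER, was at 350 and 294 FPKM against 359, 323 and 334 FPKM. Its wild-type samples were farther apart than the genotypes (log2 fold change 0.08, limma adjusted p = 0.763).

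Dnajb11, a co-chaperone of BiP, was higher in all Kdm6a-deficient samples, at 49, 53.1 and 50.9 FPKM against 47 and 48.5 FPKM. The difference was small, with a log2 fold change of 0.09 (95% interval −0.07 to 0.26, limma adjusted p = 0.57). The other J-domain co-chaperones Dnajb9, Dnajc3 and Dnajc10 had log2 fold changes of −0.12, −0.02 and −0.07, and their genotypes overlapped. Hyou1, an Hsp70 relative that exchanges nucleotide on BiP, averaged 46 ± 2.12 FPKM (SD, n = 2) without Cre and 44.9 ± 1.85 FPKM (SD, n = 3) with Cre.

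The small ER-resident or secreted proteins Sdf2l1, Manf and Creld2 are strong targets of the unfolded protein response in other cells. Sdf2l1 measured 73 and 77.7 FPKM in wild-type BMDMs against 69.4, 95.9 and 76.7 FPKM in Kdm6a-deficient BMDMs. Creld2 measured 25.9 and 27.4 FPKM in wild-type BMDMs against 24.6, 32.4 and 24.8 FPKM in Kdm6a-deficient BMDMs. In both genes Kdm6a-deficient sample 2 was the high sample and the others lay near or below the wild-type samples. Manf stood at a log2 fold change of 0.10 (95% interval −0.08 to 0.28, limma adjusted p = 0.583).

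Many of these chaperone genes are known to be switched on through the ER stress element ERSE, to which Atf6 and Xbp1 bind together with NF-Y. Its letters, CCAAT and CCACG with any 9 bases between them, were searched on both strands of promoter windows from RefSeq (build GRCm38.p6), which run from 250 bases before to 50 bases after the transcription start. A window was found for 34 of the 40 members. ERSE was in the windows of 10 members (29.4%) and in 0.119% of all 32851 windows. As targets of Xbp1 and Atf6 were chosen as members, this share is no independent observation. The second element ERSE-II, ATTGG and CCACG with any 1 base between them, was in the windows of 2 members, Herpud1 and Dnajb11, and in 0.0365% of all windows, and the core of the unfolded protein response element UPRE, TGACG followed at once by TGG, was in 0 member windows and 0.676% of all. A match is a description of the letters and does not show that a factor binds.
The matches of well-known chaperone and degradation genes are shown because these are the genes through which the response is usually read, with 10 bases on either side. The letters that the motif fixes are in capitals, and in an ERSE match CGTGG before ATTGG marks the opposite strand.
Hspa5 (chr2:34772015-34772053, + strand): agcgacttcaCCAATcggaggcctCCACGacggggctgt
Hsp90b1, upstream match (chr10:86705628-86705666, − strand): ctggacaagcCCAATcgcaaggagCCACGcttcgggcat
Hsp90b1, downstream match (chr10:86705523-86705561, − strand): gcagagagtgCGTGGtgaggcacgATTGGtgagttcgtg
Calr (chr8:84847065-84847103, − strand): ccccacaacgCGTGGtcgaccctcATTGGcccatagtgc
Canx (chr11:50325790-50325828, − strand): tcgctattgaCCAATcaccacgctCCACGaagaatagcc
Creld2 (chr15:88819510-88819548, + strand): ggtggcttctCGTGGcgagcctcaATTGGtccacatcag
Dnajc3 (chr14:118937817-118937855, + strand): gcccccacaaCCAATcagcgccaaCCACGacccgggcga
Pdia6 (chr12:17266481-17266519, + strand): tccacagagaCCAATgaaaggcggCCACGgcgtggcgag
Syvn1 (chr19:6046522-6046560, + strand): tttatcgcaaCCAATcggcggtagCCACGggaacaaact
Herpud1, ERSE-II (chr8:94386367-94386397, + strand): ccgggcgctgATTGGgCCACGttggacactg
The other members with ERSE were Derl3 and Ero1lb. The 9 tested members with ERSE had log2 fold changes from −0.12 to 0.08 with a median of −0.03, and the 24 with a window and no ERSE from −0.26 to 0.13 with a median of −0.06. In neither set did any gene pass the test.

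**Figure D3:**
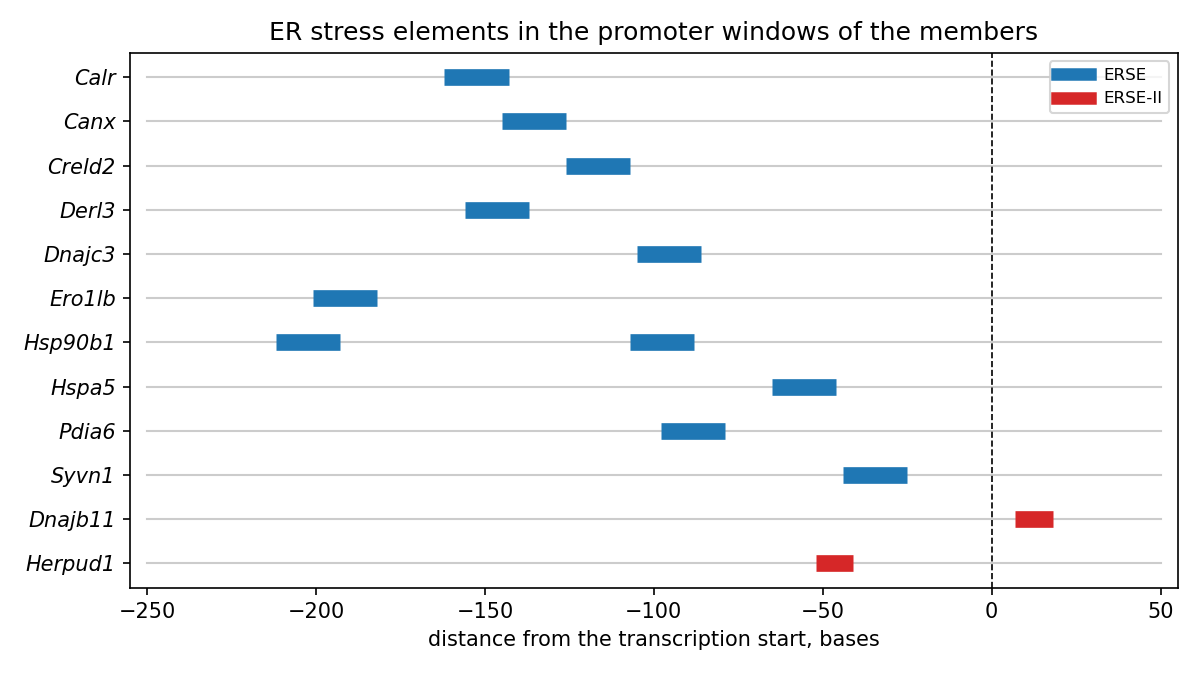
Positions of ERSE (blue) and ERSE-II (red) in the promoter windows of the 12 members that hold either (grey lines, 250 bases before to 50 bases after the transcription start). The ERSE matches begin between positions −212 and −44 from the start, and 1 of the 2 ERSE-II matches, in Dnajb11, lies after it.

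The whole window of Hspa5 (GRCm38.p6, chr2:34771840-34772139, + strand) is given because this is the gene most used to follow the response. Its single full match to ERSE is in capitals.
Hspa5: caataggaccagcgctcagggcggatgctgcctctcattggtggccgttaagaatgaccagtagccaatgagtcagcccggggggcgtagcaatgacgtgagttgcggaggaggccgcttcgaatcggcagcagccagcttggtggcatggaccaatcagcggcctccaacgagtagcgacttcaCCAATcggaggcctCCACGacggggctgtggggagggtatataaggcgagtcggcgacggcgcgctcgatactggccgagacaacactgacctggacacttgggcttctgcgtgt
The window of Ern1 (GRCm38.p6, chr11:106487747-106488046, − strand) was added because the study examined this promoter. It holds none of the motifs searched, so it has no capitals.
Ern1: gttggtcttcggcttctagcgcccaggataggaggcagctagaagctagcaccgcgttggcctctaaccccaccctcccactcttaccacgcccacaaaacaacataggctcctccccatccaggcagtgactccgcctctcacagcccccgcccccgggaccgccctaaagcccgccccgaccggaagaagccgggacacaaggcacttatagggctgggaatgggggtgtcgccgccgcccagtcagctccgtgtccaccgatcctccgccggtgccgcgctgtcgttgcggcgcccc

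None of the 5 disulfide-forming enzymes passed the test, with log2 fold changes from −0.13 to 0.01. P4hb, which encodes protein disulfide isomerase, measured 481 and 518 FPKM in wild-type BMDMs against 430, 491 and 446 FPKM in Kdm6a-deficient BMDMs. Kdm6a-deficient samples 1 and 3 were below both wild-type samples and sample 2 between them, with a log2 fold change of −0.13 (95% interval −0.34 to 0.08, limma adjusted p = 0.525). Pdia3, which works with Calr and Canx on glycoproteins, was at 353 and 364 FPKM against 341, 344 and 348 FPKM. The samples of the genotypes did not overlap, although the log2 fold change was only −0.06 (95% interval −0.22 to 0.11, limma adjusted p = 0.75). Pdia4 stayed between 74.1 and 76 FPKM in the 5 samples. Pdia6 had a log2 fold change of −0.04 and Ero1lb, which reoxidises these isomerases, one of −0.08 at a level of 5.66 FPKM.

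ER-associated degradation moves misfolded proteins out of the ER to be broken down by the proteasome. Among its genes 6 of 8 tested members had a log2 fold change below 0 and none passed. Edem1, which helps to extract misfolded glycoproteins from folding, measured 46.1 and 46.5 FPKM in wild-type BMDMs against 41.9, 34.2 and 42 FPKM in Kdm6a-deficient BMDMs. All Kdm6a-deficient samples were lower, sample 2 most of all, and the log2 fold change of −0.23 (SE 0.10, limma adjusted p = 0.301) was −0.14 without sample 2 (limma adjusted p = 0.165). Its relatives Edem2 and Edem3 were at 0.11 and −0.05 on the log2 scale, and Edem3 turned to 0.14 without sample 2. Edem3 ranged from 6.94 FPKM in Kdm6a-deficient sample 2 to 11.1 FPKM in Kdm6a-deficient sample 1, more than the genotypes differed.

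Herpud1, a membrane protein that gathers the degradation machinery, measured 39.7 and 44.4 FPKM in wild-type BMDMs against 36.1, 39.8 and 35.3 FPKM in Kdm6a-deficient BMDMs. Kdm6a-deficient sample 2 reached the lower wild-type sample, and the log2 fold change was −0.18 (95% interval −0.38 to 0.02, limma adjusted p = 0.351). Derl1, which forms part of the exit channel, was at 61.6 and 63.8 FPKM against 54.2, 56.6 and 59.7 FPKM. Its genotypes did not overlap (log2 fold change −0.14, 95% interval −0.31 to 0.03, limma adjusted p = 0.378). Sel1l, the partner of the ubiquitin ligase Syvn1, was at 31.3 and 31.2 FPKM against 31.2, 26.7 and 29.7 FPKM. Kdm6a-deficient sample 1 lay just below the wild-type samples, by less than the rounding of these values, and the log2 fold change was −0.10 (limma adjusted p = 0.628). Syvn1 and Derl2 had log2 fold changes of −0.03 and 0.04. Derl3 was below 1 FPKM in every sample, from 0.465 to 0.764 FPKM, and was not tested.

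The 8 translocation genes had log2 fold changes from −0.14 to 0.11, 6 of them below 0. Sec61b, a small subunit of the channel, showed how far a single sample could move, at 165 and 169 FPKM in wild-type and 144, 188 and 147 FPKM in Kdm6a-deficient samples. Kdm6a-deficient samples 1 and 3 were below the wild-type samples and sample 2 above them (log2 fold change −0.07, 95% interval −0.36 to 0.21, limma adjusted p = 0.827). Without sample 2 the log2 fold change of Sec61b was −0.20 (limma adjusted p = 0.0757). Sec61a1, which forms the pore, had a log2 fold change of −0.08, and Sec61g, the third subunit, one of 0.11. Ssr3, of the translocon-associated complex, went the other way from Sec61b, at 193 and 183 FPKM against 187, 147 and 180 FPKM, with sample 2 low. Its partner Ssr1 was at 19.7 and 20.3 FPKM against 18.9, 18.2 and 17.8 FPKM. The genotypes of Ssr1 did not overlap (log2 fold change −0.12, 95% interval −0.29 to 0.04, limma adjusted p = 0.448). Sec63, which couples the channel to BiP, the signal peptidase gene Spcs2 and Srp19, of the signal recognition particle, had log2 fold changes of −0.05, −0.02 and 0.06. Ufm1, a ubiquitin-like modifier of ribosomes at the ER, averaged 13.5 ± 0.315 FPKM (SD, n = 2) without Cre and 13.2 ± 0.299 FPKM (SD, n = 3) with Cre.

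Counted over all roles, the genotypes did not overlap for 8 of the 39 tested members, 7 of them lower and 1 higher in Kdm6a-deficient BMDMs. Of all tested genes 35.9% did not overlap, 19.2% as lower and 16.7% as higher genes. For 1 gene, permuting 2 and 3 samples gives no p below 0.1 in an exact test. The 8 genes are Eif2ak3, Hspa5, Pdia3, Edem1, Sel1l, Derl1 and Ssr1, which were lower, and Dnajb11. None of them reached a log2 fold change of 0.3, and their per-sample values are given because they separated the samples, which was known when they were chosen.

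**Figure D4:**
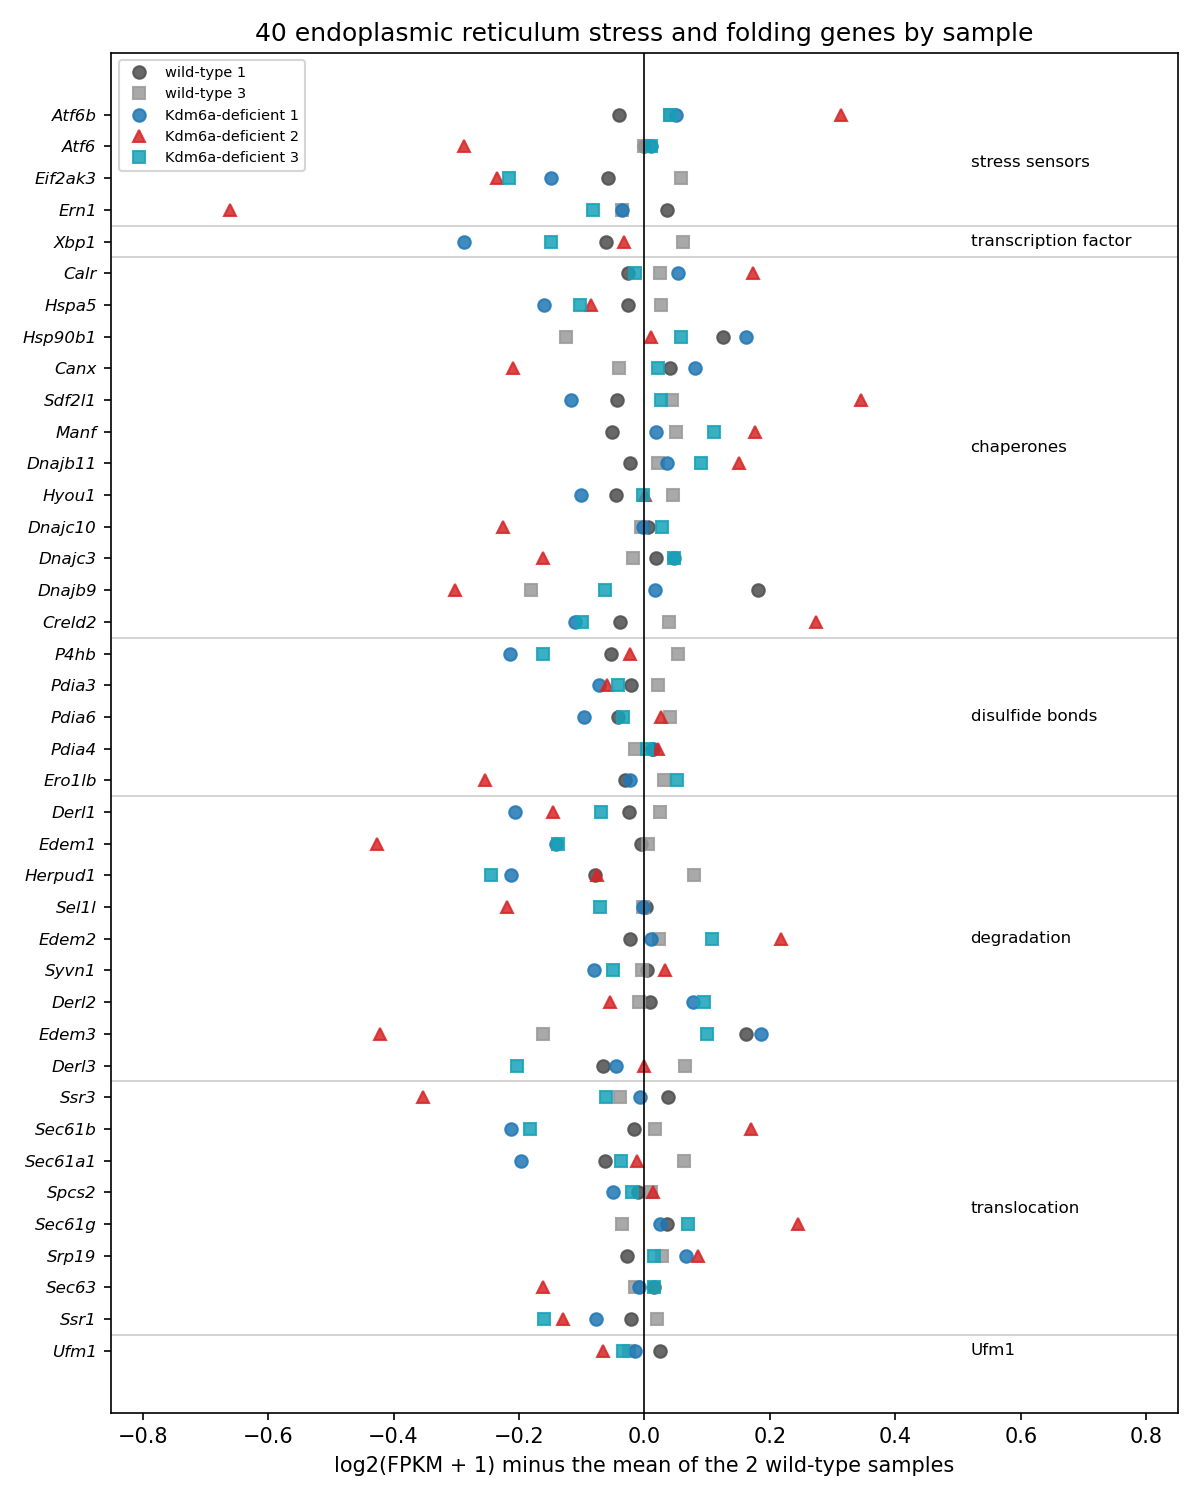
Log2(FPKM + 1) of the 40 members in each sample, less the mean of the 2 wild-type samples, grouped by role and ordered by level within a role. The farthest point is Kdm6a-deficient sample 2 (red triangles) for Ern1, at 2.87 FPKM against a wild-type mean of 5.12 FPKM.

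In these genes the difference of Kdm6a-deficient sample 2 from the other Kdm6a-deficient samples spread more widely than the log2 fold changes between the genotypes. The SD over the members was 0.234 on the log2 scale against 0.1. Over all tested genes these SDs were 0.217 and 0.22. The SDs are not directly comparable, because the genotype difference sets 3 samples against 2 and the other sets Kdm6a-deficient sample 2 alone against 2. Without this sample 8 of the 39 members turned in sign, to at most 0.14 in size, and these were Atf6, Canx, Creld2, Dnajc3, Dnajc10, Edem3, Ero1lb and Sdf2l1. It was the highest or the lowest of the 5 samples for 28 of the 39 tested members (71.8%), and for 58.9% of all tested genes. Relative to the mean of Kdm6a-deficient samples 1 and 3, it ran from −0.60 for Ern1 and −0.56 for Edem3 to 0.38 for Creld2 and 0.39 for Sdf2l1 on the log2 scale. The longest transcript of Ern1 has 6946 bases and that of Edem3 6327 bases in GENCODE vM21, and those of Sdf2l1 and Creld2 have 1108 and 1366 bases. Across the 39 members the rank correlation of this difference with transcript length was −0.76, and −0.64 across 10853 tested genes with a known length. The same correlation was −0.38 over the members for the difference of wild-type sample 3 from sample 1. Genes of a sample share its library and are no replicates, so these correlations are descriptions.

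Grouped by length, the 13 shortest members (564 to 2461 bases) had a median difference of 0.155 in Kdm6a-deficient sample 2, the next 13 (2513 to 4042 bases) one of 0.044 and the 13 longest (4239 to 9333 bases) one of −0.209. The median log2 fold changes between the genotypes of these groups were 0.019, −0.058 and −0.075. With the trend with length removed from each sample, an alternative chosen after seeing the data, 0 members passed and 7.6% of all tested genes did, and the log2 fold change of Ern1 was −0.23 (limma adjusted p = 0.354). The part of transcript length in the values of Kdm6a-deficient sample 2 was not tested further.

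**Figure D5:**
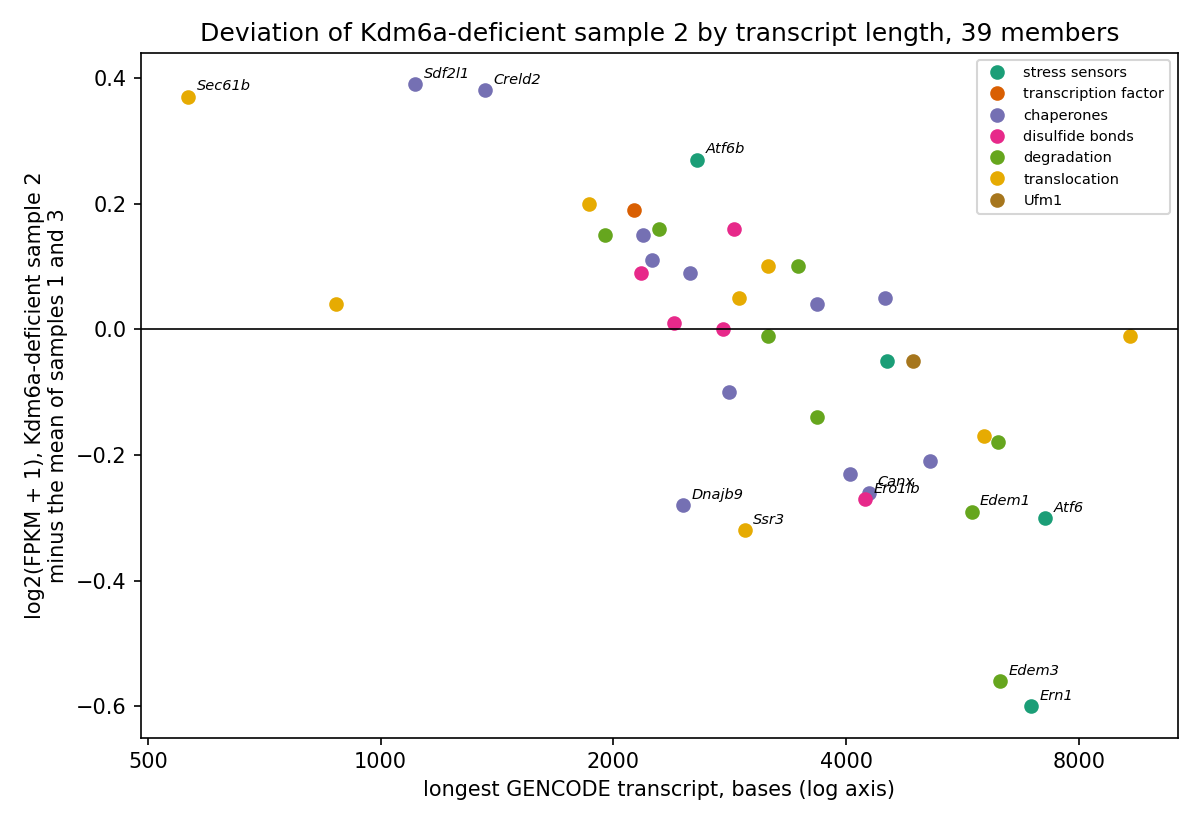
Difference of Kdm6a-deficient sample 2 from the mean of Kdm6a-deficient samples 1 and 3 in log2(FPKM + 1) against the longest GENCODE transcript (log axis) for the 39 tested members. Short genes such as Sdf2l1 (0.39) lie above 0, and long genes such as Ern1 (−0.60) and Edem3 (−0.56) below it.

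Further genes of the same compartment were read from lists written by role. Of 34 tested folding genes outside the members 1 was lower and none was higher, where 2.18% of all tested genes were lower and 1.73% higher. The gene is Ero1l, the main oxidase of protein disulfide isomerases and a target of hypoxia as well as of ER stress, which averaged 58.1 ± 1.79 FPKM (SD, n = 2) without Cre and 38.6 ± 3.73 FPKM (SD, n = 3) with Cre. Its log2 fold change was −0.58 (SE 0.09, limma adjusted p = 0.0184). It no longer passed when wild-type sample 1, wild-type sample 3 or Kdm6a-deficient sample 3 was left out (limma adjusted p = 0.0875, 0.116 and 0.0747). Of 29 tested translocation and glycosylation genes, 25 tested degradation genes, 7 tested genes of the Ufm1 pathway and 10 tested genes of Atf6 processing, none passed in limma. At an unadjusted p under 0.05 there were 0, 4, 0 and 3 genes, and the 3 genes of Atf6 processing were lower. In the folding list 7 genes were lower and 1 was higher at this level, beside the 9.22% of all tested genes that were lower and the 17.3% in either direction. The genotypes did not overlap, as lower genes, for 15 of its 34 genes and for 7 of the 10 genes of Atf6 processing (19.2% of all tested genes). For the translocation, degradation and Ufm1 lists these counts were 7 of 29, 4 of 25 and 1 of 7. The median log2 fold change of the Atf6 processing genes was −0.164. In the KEGG pathway of protein processing in the ER, as the deposited table annotates it, 2 of 114 tested genes outside the members were lower, Ero1l and Ddit3, and none was higher. This pathway was added after the values were seen.

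Genes of the Atf4 branch, which Perk feeds through the phosphorylation of eIF2α, were then read. Of 20 tested genes of this list 8 were lower, none was higher and 12 did not pass, with a median log2 fold change of −0.325. Of all tested genes 2.18% were lower. The list was chosen with earlier results of these data known, so its share is no independent observation. Markers of other cell types were lower as well, with 5 of 12 tested stromal, 2 of 5 tested endothelial and 3 of 4 tested osteoclast markers. Others were higher, with 3 of 5 tested monocyte (1 was lower), 1 of 10 tested neutrophil, 1 of 12 tested stromal and the 1 tested dendritic marker. The higher neutrophil and dendritic markers, Ctsg and Ccr7, reached 1 FPKM only in Kdm6a-deficient samples. Among the lower markers, Lum (stromal) and Tie1 (endothelial) reached it only in wild-type samples. Each of these entered the test through the genotype in which it was high. The part of these cell types in the Atf4 list was not tested. Ddit4, an inhibitor of mTORC1, measured 50.8 and 56.6 FPKM in wild-type BMDMs against 29.4, 30.3 and 31.3 FPKM in Kdm6a-deficient BMDMs (log2 fold change −0.80, limma adjusted p = 0.0028). Vldlr, a lipoprotein receptor, followed with a log2 fold change of −0.63 (adjusted p = 0.0104), Trib3, a pseudokinase that restrains Atf4, one of −0.76 (adjusted p = 0.0138) and Psat1, of serine synthesis, one of −0.44 (limma adjusted p = 0.0243). The other genes that fell were Ddit3, Asns, Chac1 and Sesn2, with log2 fold changes from −0.62 to −0.41. Ddit3, which encodes Chop and is also driven by Atf6, was at 12.4 and 12 FPKM against 7.12, 8.87 and 7.33 FPKM. Atf4 itself stood at a log2 fold change of −0.23 (limma adjusted p = 0.223).

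The number of lower genes in the Atf4 list depended on the samples and on the filter. Leaving out wild-type sample 1 or 3 gave 2 and 1 lower genes, and leaving out Kdm6a-deficient sample 1, 2 or 3 gave 4, 11 and 1. Ddit4 passed in each of these fits, Trib3 was lost without wild-type sample 3 or Kdm6a-deficient sample 3, Vldlr without either of these or wild-type sample 1, and Psat1, Ddit3, Asns and Sesn2 without any sample but Kdm6a-deficient sample 2. Chac1 was lost without either wild-type sample or Kdm6a-deficient sample 3. With no filter on low values 6 genes were lower, and Ddit3 and Chac1 were lost (limma adjusted p = 0.0628 and 0.0919). The difference between this list and the ER members was not tested.

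Xbp1 and the chaperones are highest in cells that secrete much protein, so markers of such cells and of other cells of marrow cultures were read beside them. Of 8 tested markers of plasma and B cells none passed (1 at an unadjusted p under 0.05), and their summed level was 146 to 154 FPKM in wild-type and 133 to 144 FPKM in Kdm6a-deficient samples. Sdc1, which macrophages also express, made up most of it. Jchain, a plasma cell gene that joins immunoglobulin chains, had the smallest p of the list, at 31.1 and 32.8 FPKM against 24.4, 26.3 and 23.8 FPKM. Its genotypes did not overlap, and the log2 fold change was −0.35 (limma adjusted p = 0.0534). Cd79a and Cd79b, of the B cell receptor, averaged 1.97 and 4.07 FPKM over the 5 samples, and Pax5, a transcription factor of B cells, was below 1 FPKM in each. The part of such cells in the values of the ER genes was not tested. Of 12 tested stromal markers 5 were lower and 1, Cxcl12, was higher in limma, where 2.18% of all tested genes were lower and 1.73% higher. These shares also stand beside the counts of the lists that follow. The stromal markers had a summed level of 4540 to 4890 FPKM in wild-type and 3590 to 3650 FPKM in Kdm6a-deficient samples, and none was at 0. The endothelial markers summed to 25.4 to 25.6 FPKM in wild-type and to 13.3 to 16.3 FPKM in Kdm6a-deficient samples, with 2 of 5 tested lower. Of 4 tested osteoclast markers 3 were lower, summing to 211 to 223 FPKM against 179 to 210 FPKM over the list. Of 5 tested monocyte markers 3 were higher and 1 was lower, summing to 61.2 to 66.8 FPKM against 75.1 to 82.7 FPKM. Of 10 tested neutrophil markers 1, Ctsg, was higher and none was lower, summing to 2040 to 2160 FPKM against 2050 to 2630 FPKM over the list. The 1 tested dendritic marker, Ccr7, was higher, with a log2 fold change of 1.27. Ctsg and Ccr7 reached 1 FPKM only in Kdm6a-deficient samples, so they entered the test through that genotype. Lum and Tie1, lower markers of the stromal and the endothelial list, reached it only in wild-type samples and entered through that genotype. The RNase of Ire1α also cuts some mRNAs of secreted proteins. In a list of partners and mRNA targets of Ire1α 2 of 13 tested genes were lower and 1 was higher, beside the shares of 2.18% and 1.73%. The lower genes were Col6a1 and Sparc, which stromal cells also make and of which Sparc is in the stromal list too, and the higher was Hgsnat, a lysosomal enzyme, with log2 fold changes of −0.45, −0.41 and 0.50. Bloc1s1, the best known of these mRNA targets, stood at a log2 fold change of 0.01 (limma adjusted p = 0.993). The part of stromal, endothelial, osteoclast, monocyte, neutrophil and dendritic cells in these values was not tested. In bulk samples a change in the number of cells of a type and a change in RNA per cell cannot be told apart.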

How the data were processed

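RNA-Seq of LPS-treated BMDMs was read from the deposited table of 21878 genes, in 5 samples named by genotype and replicate in the labels. TopHat was used by the authors for mapping and Cufflinks for the FPKM values. A signal per genotype is also deposited, which is the authors' mean of counts divided by size factors, and it is quoted only as such. Its columns of fold changes and p-values hold the authors' own comparison and are not used. Bowtie 0.12.2 and the builds mm8 and mm9 are listed in the submitters' notes without their roles. Their other versions are not given.

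FPKM are no counts, so limma-trend was fitted on log2(FPKM + 1) to all 5 samples without a block, for genes with 2 or more samples at 1 FPKM or above, with Benjamini-Hochberg adjustment over the 10893 tested genes and a threshold of 0.05. Changes of genes with low FPKM come out too small on this scale. All 40 members are accounted for. Values in every sample are given for the sensors and Xbp1 and, by the rule, for members past the threshold or with genotypes that do not overlap and an absolute log2 fold change of at least 0.3, of which there were 0. Further members are shown to illustrate their roles, chosen after their values were seen, as were the members whose genotypes separated. Up to 4 called genes of each other list are named by smallest adjusted p, and others named were chosen after their values were seen. The members and lists were chosen with earlier results of these data known. For 27 symbols turned into dates, RefSeq (GRCm38.p6) symbols were taken by GeneID. Transcript lengths came from GENCODE vM21 (99.6% of tested genes). Protein sequences were not used here. Alternatives were a pseudocount of 0.1 FPKM, other filters, a replicate block, each sample left out, other scalings, no variance trend and, added after seeing the data, removal of a trend with length. The fits were run in limma 3.58.1 (R 4.3.3), and the motif search and plots in Python 3.11.15.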

Additional observations from a re-analysis of the deposited data

How the results depend on the processing

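No member was called under any alternative other than the replicate block, which called 3 members lower, Xbp1 (log2 fold change −0.22, adjusted p = 0.0352), P4hb (−0.19, adjusted p = 0.036) and Sec61b (−0.20, adjusted p = 0.0379 from limma). In that fit Kdm6a-deficient sample 2 has no partner and adds nothing to the difference. No label ties same-numbered samples to a shared animal or day, so the numbers were not used as pairs. Their deviations from the genotype means correlated at 0.43 for samples 1 and −0.14 for samples 3. Kdm6a-deficient sample 2 and wild-type sample 3, of different numbers, correlated at 0.41, so these correlations cannot decide the pairing. With 2 wild-type samples these deviations mirror each other, and whether a batch is shared was not tested. The block gave 436 higher and 560 lower genes of all tested, 13 lower genes in the Atf4 list and a median over the members of −0.033. With each sample left out, the median of the members ran from −0.065 to −0.033, the higher genes of all tested from 46 to 281, the lower from 35 to 397 and the lower genes of the Atf4 list from 1 to 11. That median was −0.081 with quantile normalization, −0.069 with upper quartile scaling and −0.029 with the length trend removed, which gave 356 higher and 469 lower genes of all tested. Atf6 turned to 0.01 under the block and without Kdm6a-deficient sample 2, and 7 other members turned in both fits, among them Edem3 (0.14), Creld2 (−0.11), Canx (0.05) and Sdf2l1 (−0.05). The causes were not tested. The depth of each sample is unknown, which limits Derl3 and other low genes.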
